A study of Mus musculus with 3 samples.

Results

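Levels of 8 serpin genes were followed in mouse liver: the 6 Serpina3 genes Serpina3c, Serpina3f, Serpina3g, Serpina3k, Serpina3m and Serpina3n, together with Serpina6 and Serpina12. They were taken by name from tables of 23356 gene symbols, of which 63 are serpins, 25 belong to the Serpina clade and 11 carry a Serpina3 symbol. All 8 had a valid estimate in every library, and no symbol was repeated. The libraries held liver RNA depleted of ribosomal RNA from animals aged 16 weeks on a C57BL6J/FVB background. There was 1 library for each of 3 groups: Ercc1 delta/- under diet restriction (Ercc1 DR), Ercc1 delta/- with ad libitum feeding (Ercc1 AL) and wildtype with ad libitum feeding (wt AL). Ercc1 encodes a subunit of a nuclease used in DNA excision and crosslink repair, and both mutant groups carry the same allele pair, a null and a delta allele, in all tissues. The labels give no number of animals per library, and no restricted wildtype library is among the groups, so diet was compared only within the mutant. With 1 library per group a difference has no replicate check, so values are given without p-values or SDs.

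Serpins are protease inhibitors that present a flexible reactive centre loop as bait. When a protease cuts the loop, the loop folds into the body of the serpin and the protease is trapped, and the loop sequence largely decides which proteases are caught. The single human gene SERPINA3, which encodes antichymotrypsin, corresponds to a cluster of duplicated genes in the mouse, several of which the liver secretes into plasma. Serpina6 encodes corticosteroid-binding globulin, a serpin that carries glucocorticoids in plasma rather than inhibiting proteases, and Serpina12 encodes vaspin, a secreted inhibitor of kallikrein 7 described first in rat fat tissue.

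The reactive centre loop is shown because the 6 Serpina3 copies were less alike there than over the whole coding sequence. The sequences are the coding strand of the loop region from GENCODE transcripts on GRCm38, near the end of the reading frame of each gene. Lower case at the left is the hinge that carries the loop, capitals are the codons between the hinge and the conserved stretch after it, and lower case at the right is the start of that stretch.
Serpina3k: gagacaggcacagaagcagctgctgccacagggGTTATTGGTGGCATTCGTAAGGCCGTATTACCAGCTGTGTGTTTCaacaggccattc
Serpina3m: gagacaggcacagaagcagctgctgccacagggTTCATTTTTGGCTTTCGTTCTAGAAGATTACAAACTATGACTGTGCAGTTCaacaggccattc
Serpina3n: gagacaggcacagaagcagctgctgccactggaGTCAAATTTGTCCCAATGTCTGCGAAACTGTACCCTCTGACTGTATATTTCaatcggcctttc
Serpina3c: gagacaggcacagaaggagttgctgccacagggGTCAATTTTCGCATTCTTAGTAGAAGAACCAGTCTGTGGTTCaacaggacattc
Serpina3f: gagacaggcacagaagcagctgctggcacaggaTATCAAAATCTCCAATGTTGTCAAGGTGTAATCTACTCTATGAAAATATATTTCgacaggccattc
Serpina3g: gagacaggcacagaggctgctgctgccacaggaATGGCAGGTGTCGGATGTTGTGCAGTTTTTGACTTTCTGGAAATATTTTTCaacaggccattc
They lie at chr12:104345263-104345352 in Serpina3k, chr12:104393763-104393858 in Serpina3m and chr12:104413442-104413537 in Serpina3n on the plus strand. Serpina3c is read from the minus strand at chr12:104147307-104147393. Serpina3f lies at chr12:104220239-104220337 and Serpina3g at chr12:104241066-104241161 on the plus strand. Across the 15 pairs of genes the hinge was 84.8% to 100% identical, and the variable stretch 37.3% to 64.4%. The hinge was located by an amino acid motif that all 6 genes had to hold, so part of its identity was fixed by the search. The whole coding sequence was 80.6% to 91.7% identical. That share is over aligned bases with gaps left out, while in the variable stretch it is over the longer sequence of the pair. The Serpina3g model used has 248 codons, against 417 to 445 in the other genes, so its coding identity covers a shorter stretch. Serpina3k and Serpina3m shared all 33 hinge bases and 52.9% of the variable stretch, and their coding sequences were 91.7% identical.

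Levels are in FPKM, a count of fragments scaled to transcript length and to the mapped fragments of the library, and the authors deposited each with a lower and an upper bound. Of the 24 values for these genes, 9 lay inside their own deposited bounds. The other 15 lay above their upper bound, and they stood 9.53% to 14.1% above the midpoint of the interval. These were all values of Serpina3c, Serpina3k, Serpina3m, Serpina3n and Serpina6. Over all rows the share above the own bounds was 12.9% in Ercc1 DR, 12.8% in Ercc1 AL and 9.63% in wt AL. The bounds reached 0.565% to 17.9% of the midpoint to either side, and they describe counting and assignment within 1 library, not animals. Read counts were not used here, so the depth is unknown. The libraries differed in general level: over 9053 genes with at least 1 FPKM in every library, the median log2 FPKM ratio was 0.49 for Ercc1 AL over wt AL, 0.34 for Ercc1 DR over Ercc1 AL and 0.79 for Ercc1 DR over wt AL. Log2 ratios below are of FPKM + 1 after this shift was removed, unless called as deposited, and understate low genes. Whether the bounds of different libraries overlap is stated for FPKM as deposited, with the shift still in. The shift alone can set such bounds apart, and the share of all genes without overlap is not given here. Ercc1 itself was at 0.475 FPKM in Ercc1 DR, 0.573 in Ercc1 AL and 0.461 in wt AL, with overlapping bounds, so its level does not separate the genotypes.

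Serpina3k, which encodes the plasma protease inhibitor contrapsin, had the highest level of the 8 genes. It stood at 1407 FPKM in Ercc1 DR, 1026 FPKM in Ercc1 AL and 660.0 FPKM in wt AL, and the bounds of the 3 libraries did not overlap. As deposited, that order gave a ratio of 1.37 between Ercc1 DR and Ercc1 AL and of 1.55 between Ercc1 AL and wt AL. After the shift between libraries was removed little of this was left, with log2 ratios of 0.14 for Ercc1 AL over wt AL, 0.12 for Ercc1 DR over Ercc1 AL and 0.31 for Ercc1 DR over wt AL. In liver as a whole, a lower level can come from fewer cells of a type or from less RNA per cell, and these cannot be told apart.

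Serpina3m, a contrapsin-like copy beside Serpina3k, followed it at a lower level, with 383.2 FPKM in Ercc1 DR, 237.6 FPKM in Ercc1 AL and 155.5 FPKM in wt AL. The order of libraries was the same and the bounds again stood apart. Its rescaled log2 ratios were 0.12 for Ercc1 AL over wt AL, 0.35 for Ercc1 DR over Ercc1 AL and 0.51 for Ercc1 DR over wt AL. Serpina3m reached 27.2% of the Serpina3k level in Ercc1 DR, 23.2% in Ercc1 AL and 23.6% in wt AL, a comparison within each library that no scaling between libraries can move.

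Serpina3n, a secreted serpin known in mouse as an acute phase gene and an inhibitor of granzyme B, differed most between genotypes among the Serpina3 genes. Its level was 160.3 FPKM in Ercc1 DR, 112.4 FPKM in Ercc1 AL and 46.38 FPKM in wt AL. Both mutant libraries were high, wt AL was low and no bounds overlapped. The FPKM ratio as deposited was 2.42 for Ercc1 AL over wt AL and 3.46 for Ercc1 DR over wt AL. The rescaled log2 ratio was 0.77 for Ercc1 AL over wt AL, with 0.70 to 0.83 allowed by the bounds. For Ercc1 DR over wt AL it was 0.99, with 0.92 to 1.05, which straddles the 2-fold line. In these comparisons 96.5% and 93.9% of all measured genes had a lower ratio. Between Ercc1 DR and Ercc1 AL the log2 ratio was 0.17, above that of 69.1% of genes.

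Serpina3c, which encodes a kallikrein-binding serpin, was at 77.63 FPKM in Ercc1 DR, 67.93 FPKM in Ercc1 AL and 37.99 FPKM in wt AL. The mutant libraries were again the higher ones as deposited, and the deposited bounds did not overlap. Its rescaled log2 ratio was 0.34 for Ercc1 AL over wt AL and 0.24 for Ercc1 DR over wt AL. For Ercc1 DR over Ercc1 AL it was -0.14 after rescaling and 0.19 as deposited, so the direction of the diet difference depends on the scaling. Within a library, Serpina3n stood at 2.06 times Serpina3c in Ercc1 DR, 1.65 times in Ercc1 AL and 1.22 times in wt AL.

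Serpina3f and Serpina3g form a low pair. Serpina3g, also called Spi2A, is an intracellular serpin known to inhibit lysosomal cathepsins in the cytosol. Serpina3f had 7.631 FPKM in Ercc1 DR, 8.315 FPKM in Ercc1 AL and 5.701 FPKM in wt AL. Serpina3g had 4.906 FPKM in Ercc1 DR, 5.632 FPKM in Ercc1 AL and 4.12 FPKM in wt AL. For both genes the bounds of the mutant libraries overlapped each other and lay above those of wt AL. Rescaled, Ercc1 AL over wt AL gave 0.05 for Serpina3f and -0.03 for Serpina3g, where the bounds allow either sign. The log2 ratio for Ercc1 DR over Ercc1 AL was -0.41 for Serpina3f and -0.45 for Serpina3g, and that for Ercc1 DR over wt AL was -0.32 and -0.44 in the same order of genes. As deposited the comparison of Ercc1 DR with wt AL was positive for both, at 0.37 for Serpina3f and 0.21 for Serpina3g. The ratio of Serpina3f to Serpina3g was 1.56 in Ercc1 DR, 1.48 in Ercc1 AL and 1.38 in wt AL, and the ranges that the bounds allow overlap.

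Serpina6 ran the other way. Its level was 18.76 FPKM in Ercc1 DR, 34.65 FPKM in Ercc1 AL and 39.81 FPKM in wt AL. Ercc1 DR was the low library, at 0.541 times Ercc1 AL as deposited, and the bounds of all 3 libraries stood apart. The rescaled log2 ratio was -1.17 for Ercc1 DR over Ercc1 AL, with -1.29 to -1.03 allowed by the bounds, and -1.80 for Ercc1 DR over wt AL, with -1.91 to -1.66. Only 9.48% and 6.35% of genes had lower ratios in these comparisons. For Ercc1 AL over wt AL it was -0.68 rescaled and -0.20 as deposited.

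Serpina12 was the lowest of the 8 genes, at 0.452 FPKM in Ercc1 DR, 1.154 FPKM in Ercc1 AL and 1.709 FPKM in wt AL. It followed the order of Serpina6, with Ercc1 DR lowest and no overlap of bounds. On the log2 scale with 1 added, which compresses so low a gene, the rescaled ratios were -0.62 for Ercc1 AL over wt AL, -0.71 for Ercc1 DR over Ercc1 AL and -1.27 for Ercc1 DR over wt AL. Its FPKM ratio as deposited was 0.392 for Ercc1 DR over Ercc1 AL and 0.265 for Ercc1 DR over wt AL.

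**Figure D1:**
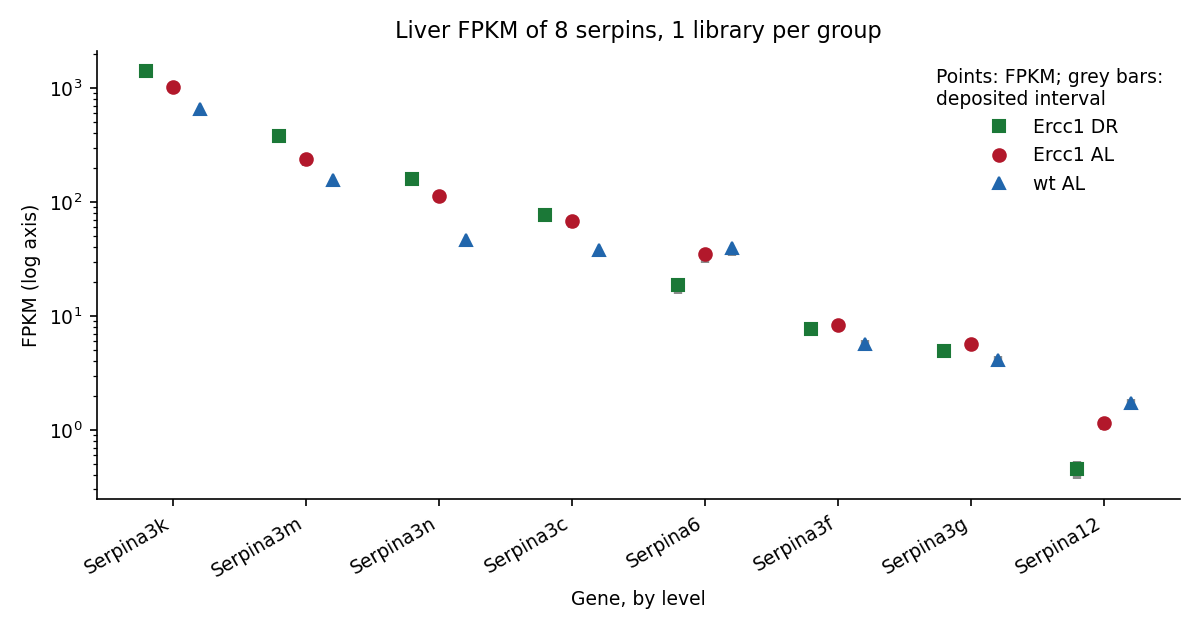
FPKM (log axis) of each of the 8 serpins in Ercc1 DR, Ercc1 AL and wt AL, 1 point per library, with the deposited bounds as grey bars, mostly hidden by the points. Serpina3k, Serpina3m, Serpina3n and Serpina3c descend in level with Ercc1 DR highest in each, while Serpina6 and Serpina12 have Ercc1 DR lowest.

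The order of levels was Serpina3k, Serpina3m, Serpina3n, Serpina3c, Serpina6, Serpina3f, Serpina3g and Serpina12 in Ercc1 DR and in Ercc1 AL. In wt AL Serpina6 stood above Serpina3c, but the bounds of these neighbours overlapped there. No other neighbours in the order had overlapping bounds. Among genes with a valid estimate, Serpina3k ranked 268 of 23300 in Ercc1 DR, 320 of 23267 in Ercc1 AL and 324 of 23294 in wt AL by level. Rows with the status HIDATA or FAIL have no rank. HIDATA rows numbered 55 in Ercc1 DR, 91 in Ercc1 AL and 59 in wt AL.

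Counted at 2-fold after rescaling, none of the 8 genes was higher and none lower in Ercc1 AL over wt AL, where 2.3% of 12294 measured genes were higher and 4.9% lower. In Ercc1 DR over Ercc1 AL none was higher and Serpina6 was lower, against 3.07% and 11.9% of 12295 genes. For Ercc1 DR over wt AL none was higher, while Serpina6 and Serpina12 were lower, against 5.93% and 16.4% of 12054 genes. As deposited, Serpina3n alone was higher and none lower in Ercc1 AL over wt AL, with 5.7% and 2.2% of all genes. None passed in either direction in Ercc1 DR over Ercc1 AL, with 6.47% and 8.65%. In Ercc1 DR over wt AL, Serpina3c, Serpina3k, Serpina3m and Serpina3n were higher and Serpina6 lower, with 24.1% and 8.56% of all genes. The comparisons share libraries, so they do not support each other.

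**Figure D2:**
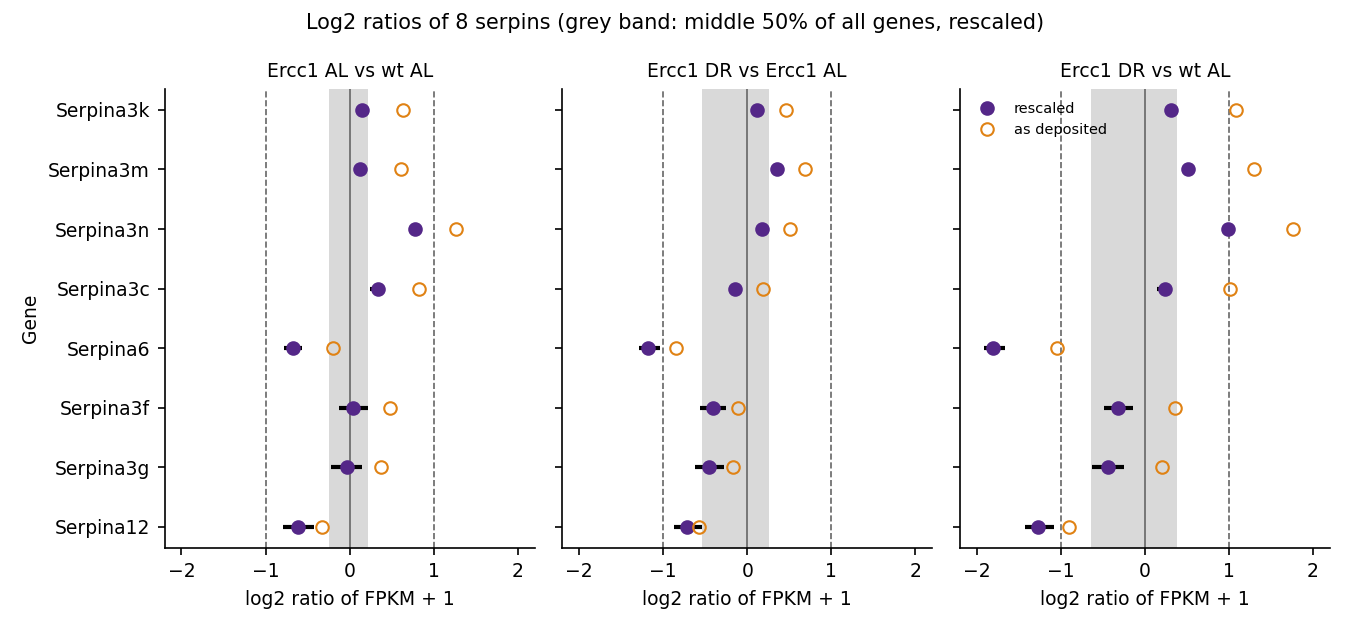
Log2 ratio of FPKM + 1 of the 8 serpins (rows) in 3 comparisons (panels), rescaled (filled, with the range the deposited bounds allow as bars) and as deposited (open). Dashed lines mark 2-fold and the grey band the middle 50% of all genes. Serpina3n lies right of the band in both comparisons with wt AL and Serpina6 and Serpina12 left of it in all 3, while Serpina3c is right of it in Ercc1 AL over wt AL and Serpina3m in Ercc1 DR over Ercc1 AL and over wt AL.

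The median rescaled log2 ratio of the 6 Serpina3 genes was 0.13 in Ercc1 AL over wt AL, -0.01 in Ercc1 DR over Ercc1 AL and 0.28 in Ercc1 DR over wt AL. The same median over all genes was 0.007, -0.063 and -0.033 in that order of comparisons. Since the copies share stretches of sequence that can exchange reads, the 6 genes were also summed. The sum was 2041 FPKM in Ercc1 DR, 1458 FPKM in Ercc1 AL and 909.8 FPKM in wt AL, with log2 ratios of 0.19 for Ercc1 AL over wt AL, 0.15 for Ercc1 DR over Ercc1 AL and 0.38 for Ercc1 DR over wt AL. Serpina3k made up 69.0% of the sum in Ercc1 DR, 70.4% in Ercc1 AL and 72.5% in wt AL. Serpina3n took 7.85% in Ercc1 DR, 7.71% in Ercc1 AL and 5.1% in wt AL, so its share was larger in both mutant libraries.

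Ratios inside a library are free of the shift between libraries. The summed Serpina3 genes stood at 109 times Serpina6 in Ercc1 DR, 42.1 times in Ercc1 AL and 22.9 times in wt AL. Serpina3n stood at 8.54 times Serpina6 in Ercc1 DR, 3.24 times in Ercc1 AL and 1.17 times in wt AL. The ranges allowed by the bounds did not overlap for either ratio. Set against the 5 alpha-1-antitrypsin genes Serpina1a to Serpina1e, the main elastase inhibitors that the liver secretes, the Serpina3 sum was 1.62 times their sum in Ercc1 DR, 1.11 times in Ercc1 AL and 0.735 times in wt AL. The Serpina1 sum itself was 1264 FPKM in Ercc1 DR, 1308 FPKM in Ercc1 AL and 1237 FPKM in wt AL as deposited. Rescaled, its log2 ratio was -0.413 for Ercc1 AL over wt AL, -0.385 for Ercc1 DR over Ercc1 AL and -0.753 for Ercc1 DR over wt AL. The ratio of the 2 sums therefore holds a lower Serpina1 sum as well as a higher Serpina3 sum on that scale.

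All 8 genes lie on chromosome 12 of mm10. Serpina6 (chr12:103646632-103657071, minus strand) and Serpina12 (chr12:104028769-104044443, minus strand) precede the Serpina3 genes. Serpina3c (chr12:104146907-104153872) is on the minus strand. Serpina3f, Serpina3g, Serpina3k (chr12:104338486-104345739), Serpina3m (chr12:104387164-104394257) and Serpina3n (chr12:104406708-104414329) are on the plus strand. The tables give Serpina3f (chr12:104214544-104221129) and Serpina3g (chr12:104214544-104241934) the same start and a start-site identifier in common, with a further identifier for Serpina3f. No antisense gene overlaps the exons of the 8 genes in the annotation used here. In this order along the chromosome, Serpina3k, Serpina3m and Serpina3n at the far end had positive rescaled ratios in all 3 comparisons. Serpina3c did so as deposited only.

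**Figure D3:**
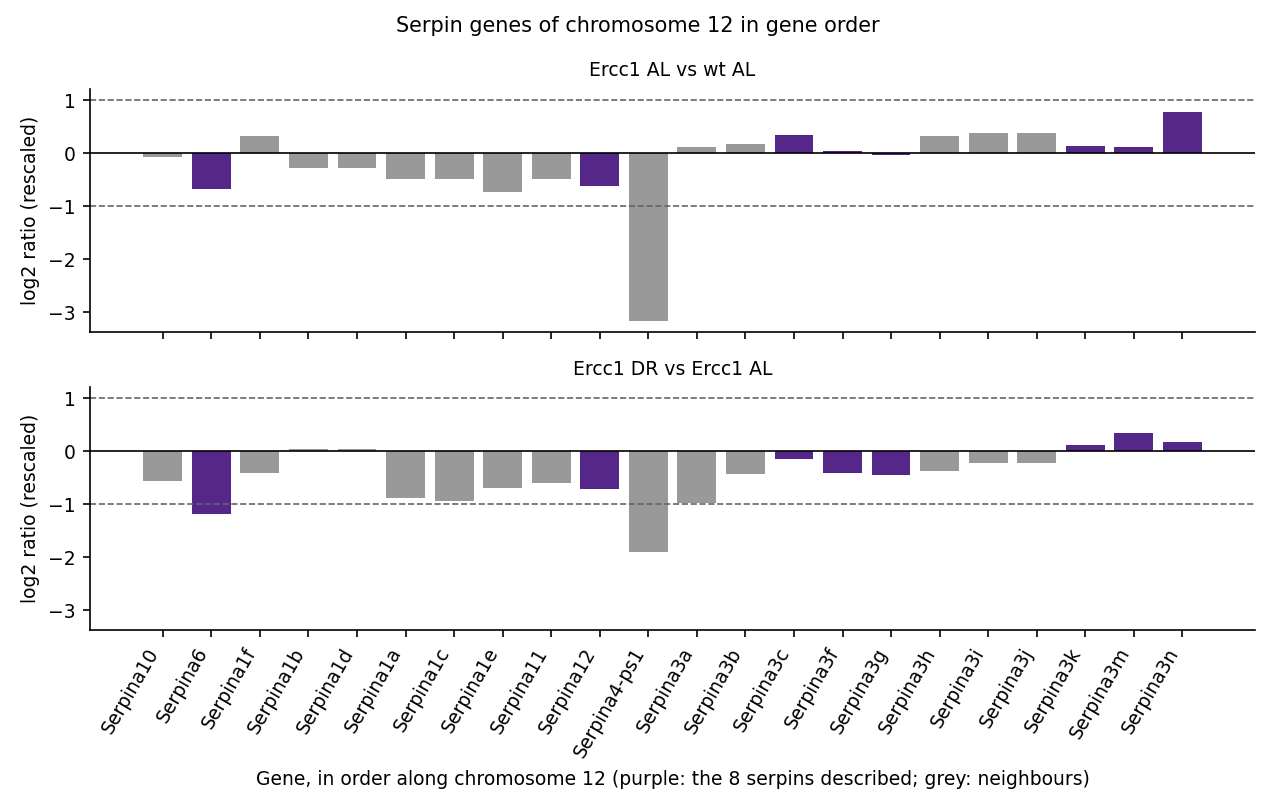
Rescaled log2 ratio of FPKM + 1 (bars) of the measured clade A serpin genes of chromosome 12 in gene order, for Ercc1 AL over wt AL (top) and Ercc1 DR over Ercc1 AL (bottom), with dashed lines at 2-fold. Serpina4-ps1, a neighbour, has the longest bar in both panels, and Serpina3k, Serpina3m and Serpina3n stand above 0 in both.

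Of 18 other clade A serpins listed, 17 were found in the tables, and 15 were measured in Ercc1 AL over wt AL and in Ercc1 DR over Ercc1 AL, and 13 in Ercc1 DR over wt AL. None was 2-fold higher. Serpina4-ps1, a mouse pseudogene related to the human kallistatin gene, was lower in each comparison, with 0.6592 FPKM in Ercc1 DR, 4.373 FPKM in Ercc1 AL and 34.53 FPKM in wt AL. Its rescaled log2 ratio was -3.16 for Ercc1 AL over wt AL, -1.90 for Ercc1 DR over Ercc1 AL and -4.95 for Ercc1 DR over wt AL. In Ercc1 DR over wt AL, Serpina1a, Serpina1c, Serpina1e and Serpina11 were lower as well, and as deposited only Serpina4-ps1 was. The median of the list was -0.08 for Ercc1 AL over wt AL, -0.57 for Ercc1 DR over Ercc1 AL and -0.61 for Ercc1 DR over wt AL, the order of comparisons kept for the medians and counts of the lists below. Of the 5 Serpina3 copies outside the 6 described, Serpina3h, Serpina3i and Serpina3j summed to 20.59 FPKM in Ercc1 DR, 20.46 FPKM in Ercc1 AL and 10.81 FPKM in wt AL. Serpina3a was at 1.827 FPKM in Ercc1 DR, 3.73 FPKM in Ercc1 AL and 2.377 FPKM in wt AL. Serpina3b was at 0.6549 FPKM in Ercc1 DR, 1.012 FPKM in Ercc1 AL and 0.541 FPKM in wt AL. Both had Ercc1 AL highest.

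How far reads of the copies can be told apart was measured on the annotated transcripts. Of the 50-base windows of Serpina3m, 19.1% also occur in another gene. The share was 16.0% in Serpina3g, 14.0% in Serpina3k, 10.9% in Serpina3f, 6.9% in Serpina3n and 4.25% in Serpina3c. With 100-base windows the highest share among the 8 was 6.09%, in Serpina3m. Serpina6 and Serpina12 shared no window of either length. The longest run of identical transcript bases was 154 between Serpina3k and Serpina3m, 119 between Serpina3f and Serpina3g and 39 between Serpina3k and Serpina3n. Outside the 6 genes, Serpina3i shared a run of 135 bases with Serpina3g and of 132 with Serpina3f, and within them Serpina3g and Serpina3n shared 100. More of the shared 50-base windows of Serpina3g were found in Serpina3h than in any other gene. An annotated Serpina3m transcript also begins at the start of Serpina3k, so those genes share exonic sequence. How such reads were assigned is not given in the sources used here, so the split of reads between Serpina3k and Serpina3m, and among Serpina3f, Serpina3g, Serpina3h and Serpina3i, is uncertain.

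**Figure D4:**
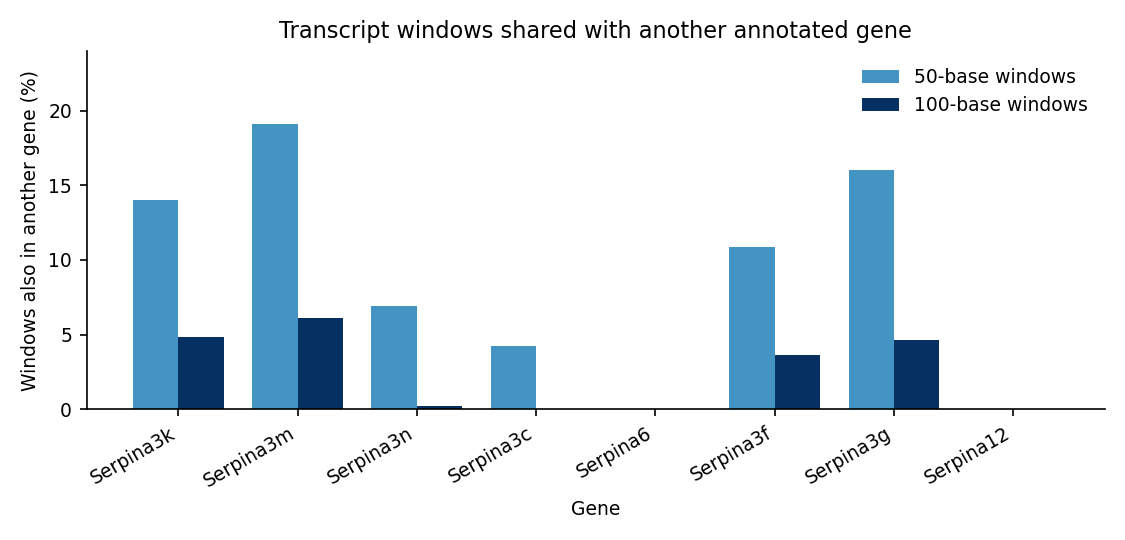
Percent of transcript windows of 50 bases (light) and 100 bases (dark) of each of the 8 serpins that also occur in another annotated gene. Among the 8, Serpina3m has the highest share at both lengths, and Serpina6 and Serpina12 have none.

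Promoter sequence from RefSeq (GRCm38.p6) was at hand for Serpina3c, Serpina3f, Serpina3g, Serpina3n and Serpina12, and not for Serpina3k, Serpina3m or Serpina6. It was searched for TTCNNNGAA, the core of the element bound by STAT factors, which reads the same on both strands. In rat, the liver gene Spi2.1 is a known target of growth hormone through STAT5 at such elements. The stretches around the site are shown because the same 9 bases align in all 4 Serpina3 promoters, with those 9 bases in capitals.
Serpina3g: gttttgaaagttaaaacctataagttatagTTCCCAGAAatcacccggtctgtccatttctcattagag
Serpina3f: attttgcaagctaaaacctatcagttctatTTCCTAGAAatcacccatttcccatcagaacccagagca
Serpina3n: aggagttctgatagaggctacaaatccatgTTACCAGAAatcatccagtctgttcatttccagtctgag
Serpina3c: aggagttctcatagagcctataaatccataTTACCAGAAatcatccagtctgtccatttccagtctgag
They lie at chr12:104236084-104236152 (Serpina3g, plus strand), chr12:104214393-104214461 (Serpina3f, plus strand), chr12:104406555-104406623 (Serpina3n, plus strand) and chr12:104153954-104154022 (Serpina3c, minus strand). Relative to the start used for each promoter, the first capital lies at -33 in Serpina3g, -121 in Serpina3f, -123 in Serpina3n and -120 in Serpina3c. The Serpina3g promoter (chr12:104235897-104236196) does not cover the start given with the FPKM of that gene (chr12:104214544). Counted from 1 at the first capital, Serpina3f differs from Serpina3g by C5T, which leaves the motif intact. Serpina3n and Serpina3c both differ from Serpina3g by C3A, and their windows hold no match to the motif. Over all promoters of the same 300 bases, 2726 of 32851, or 8.3%, hold it, and the Serpina12 promoter does not. The promoters of Serpina3c and Serpina3n were 93.5% identical over 294 aligned bases, and those of Serpina3f and Serpina3g 83.7% over 202. A match is a description of the letters and not a measured binding site.

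Growth hormone and STAT5 genes, IL6 and STAT3 genes, glucocorticoid genes and interferon gamma genes were followed because members of the cluster are known to answer to such signals. Orders of libraries below are of FPKM as deposited in single libraries, which the general shift also affects. Beside the rescaled list counts, 2.3% of all genes were higher and 4.9% lower in Ercc1 AL over wt AL. Those shares were 3.07% and 11.9% in Ercc1 DR over Ercc1 AL and 5.93% and 16.4% in Ercc1 DR over wt AL. A link between any gene named below and the serpins was not tested. Of the growth hormone list, 10 genes were measured in Ercc1 AL over wt AL, none was 2-fold higher and Cish was lower. In Ercc1 DR over Ercc1 AL, 11 were measured, of which Socs2 and Cish were higher and Bcl6 lower, and in Ercc1 DR over wt AL none was higher while Ghr, Cish and Bcl6 were lower. Cish, a STAT5 target that damps cytokine signalling, was at 4.943 FPKM in Ercc1 DR, 0.9809 FPKM in Ercc1 AL and 9.733 FPKM in wt AL. Bcl6, a repressor at STAT5 sites, was at 1.346 FPKM in Ercc1 DR, 5.56 FPKM in Ercc1 AL and 5.009 FPKM in wt AL. Cish had Ercc1 AL as its lowest library and none of the 8 serpins did, a description of order only. The median of the list was -0.38, 0.23 and 0.07. As deposited it held 0, 2 and 3 higher and 1 lower gene in each comparison.

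In the IL6 list 11 genes were measured in Ercc1 AL over wt AL and in Ercc1 DR over Ercc1 AL, and none passed 2-fold. For Ercc1 DR over wt AL, 10 were measured and Il1r1 was higher. Il1r1, the receptor for interleukin 1, was at 23.95 FPKM in Ercc1 DR, 11.11 FPKM in Ercc1 AL and 4.036 FPKM in wt AL. Serpina3n had this order of libraries, as did their general level. Socs3, which STAT3 induces and which limits it, was at 1.085 FPKM in Ercc1 DR, 1.583 FPKM in Ercc1 AL and 1.643 FPKM in wt AL. The list's median was 0.10, -0.38 and 0.10, and as deposited 2, 1 and 3 of its genes were higher and none lower.

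Of 14 measured glucocorticoid genes, Mt2 was higher in Ercc1 AL over wt AL. Fkbp5, Tat, Mt2 and Akr1d1 were higher in Ercc1 DR over Ercc1 AL and in Ercc1 DR over wt AL, and none was lower in any comparison. Fkbp5, a co-chaperone induced by the glucocorticoid receptor, was at 28.21 FPKM in Ercc1 DR, 8.644 FPKM in Ercc1 AL and 5.642 FPKM in wt AL. Serpina6, which carries the hormone in plasma, had the opposite order of libraries. The median of this list was -0.07, 0.24 and 0.02, and as deposited 1, 4 and 5 genes were higher and none lower. Among 21 interferon gamma genes none passed in Ercc1 AL over wt AL. Irf8 was lower in Ercc1 DR over Ercc1 AL, and Irf8, Gbp6, Gbp7 and Iigp1 were lower in Ercc1 DR over wt AL. Of all genes, 11.9% and 16.4% were lower in these comparisons. As deposited 0, 0 and 1 were higher and 0, 1 and 1 lower. The median was -0.15, -0.24 and -0.20, and Serpina3g, an interferon-responsive gene in mouse macrophages, gave -0.03, -0.45 and -0.44.

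Proteases of the kind that serpins catch were measured for 7, 6 and 7 genes in the 3 comparisons. Ctsl, the lysosomal cathepsin L, was at 200.2 FPKM in Ercc1 DR, 39.53 FPKM in Ercc1 AL and 17.86 FPKM in wt AL, and it was higher in Ercc1 DR over Ercc1 AL and over wt AL. Ctss, cathepsin S of antigen-presenting cells, was at 8.692 FPKM in Ercc1 DR, 19.21 FPKM in Ercc1 AL and 34.72 FPKM in wt AL, lower in all 3 comparisons. Klk7, the kallikrein that vaspin inhibits, was at 0.202 FPKM in Ercc1 DR, 0.527 FPKM in Ercc1 AL and 1.445 FPKM in wt AL, the same order of libraries as Serpina12, and it was lower in Ercc1 DR over wt AL. The median of the protease list was -0.22, 0.20 and -0.08, and as deposited 1, 1 and 3 were higher and 0, 1 and 2 lower.

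Serpins of other clades gave fewer measured genes. Of the other secreted serpins 8, 8 and 7 were measured in the 3 comparisons, with medians of -0.23, -0.10 and -0.05. Serpine2, protease nexin 1, was the only gene of them past 2-fold, lower in each, at 1.308 FPKM in Ercc1 DR, 3.654 FPKM in Ercc1 AL and 6.303 FPKM in wt AL. As deposited 0, 1 and 1 of these secreted serpins were higher and 0, 1 and 1 lower. Of the intracellular clade B serpins 3 were measured, with medians of 0.24, -0.68 and -0.23. Serpinb12 was lower in Ercc1 DR over Ercc1 AL and, once rescaled, over wt AL, at 6.863 FPKM in Ercc1 DR, 16.85 FPKM in Ercc1 AL and 12.12 FPKM in wt AL. As deposited 0, 0 and 1 of the clade B genes were higher and 0, 1 and 0 lower.

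Cell type markers moved between the libraries too. The summed FPKM of 9 hepatocyte markers, with Alb missing in every library, was 11310 in Ercc1 DR, 5145 in Ercc1 AL and 3444 in wt AL. The general level of the libraries had the same order. The median rescaled log2 ratio of the hepatocyte markers was 0.22, 0.73 and 0.71 in the 3 comparisons. Endothelial markers summed to 16.48 FPKM in Ercc1 DR, 28.19 in Ercc1 AL and 34.04 in wt AL, neutrophil markers to 7.047, 11.46 and 15.4 and T, B and NK cell markers to 9.347, 19.58 and 29.2, in the same order of libraries. Of the T, B and NK cell markers, 13 of 14 were under 1 FPKM and Cd79b was the exception. Kupffer cell markers summed to 22.05 FPKM in Ercc1 DR, 35.24 in Ercc1 AL and 26.5 in wt AL. Stellate cell markers summed to 46.27 FPKM in Ercc1 DR, 42.72 in Ercc1 AL and 24.87 in wt AL, and cholangiocyte markers to 5.019, 5.155 and 8.037 in those libraries. Adipocyte markers, relevant to Serpina12, summed to 32.79 FPKM in Ercc1 DR, 52.79 in Ercc1 AL and 22.0 in wt AL, with 5 of 8 under 1 FPKM. The sums are as deposited, and rescaled medians follow for the 3 comparisons. Endothelial markers gave -0.334, -0.663 and -0.951, neutrophil markers -0.71, -0.561 and -1.753 and Kupffer cell markers -0.032, -0.727 and -0.829. Stellate cell markers gave 0.193, -0.381 and -0.295, cholangiocyte markers -0.81, 0.075 and -1.028 and adipocyte markers 0.546, 0.141 and 0.733. Cd79b gave -1.318, -1.427 and -2.685. Neutrophil, cholangiocyte and adipocyte medians rest on 2 to 4 genes. No marker was at 0 in any library. The part of these differences in the serpin levels was not tested.

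The genes whose 3 log2 ratios lay closest to each serpin were searched among 4445 genes, with the distance taken over the 3 comparisons of 3 libraries. Closest to Serpina3k were Lysmd3, Coa3 and Glod4, at distances of 0.005 to 0.016. Those closest to Serpina3m were Psmd13, Psme3 and Rpl27, at 0.017 to 0.019. For Serpina3n they were Ibtk, Naa38 and Trp53inp1, at 0.044 to 0.079. Serpina3c was nearest to Arl6ip1, Insig1 and Nr1d2, at 0.010 to 0.039, and Serpina3f to Slc12a9, Snrk and Cyp2d34, at 0.008 to 0.042. Nearest to Serpina3g were Cyp2d12, Slc38a10 and Cuta, at 0.039 to 0.065, and to Serpina6 Tom1, Lmf1 and Ptpn22, at 0.048 to 0.076. Serpina12 was too low for this search. Among the 8 genes themselves Serpina3f and Serpina3g were the closest pair, at 0.15, followed by Serpina3k and Serpina3m at 0.311, while Serpina3n and Serpina6 were farthest apart, at 3.42. Both close pairs share sequence and the split of reads within them is uncertain. The part of shared reads in their likeness was not tested.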

How the data were processed

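Liver RNA depleted of ribosomal RNA was sequenced in 3 libraries, 1 per group, assigned by their labels. Per the file headers, the authors deposited FPKM per gene with its bounds and a status code. The submitters' processing notes name mm10. Which tool, annotation and strand setting made the values is not stated in the labels or headers. Rows marked HIDATA or FAIL were set to missing, and a repeated symbol was represented by its row of highest mean FPKM.

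Libraries were compared by the log2 ratio of FPKM + 1, after the median log2 FPKM ratio of genes at 1 FPKM or more in every library had been set to 0, and counted over genes reaching 1 FPKM in either. Called means at least 2-fold. With 1 library per group no test was made. The calculation was tested on simulated data. The 8 genes, 8 gene lists and 8 marker lists were chosen with earlier results of these data known. Named genes were the 8 serpins, the 2 to 4 genes of a list with the largest absolute ratio (fewer where fewer were measured), and the 3 genes nearest to each serpin with at least 5 FPKM; some taken by this rule are not described, and Serpina11 and the copies Serpina3b, Serpina3h, Serpina3i and Serpina3j were chosen after their values were seen. Likeness was the Euclidean distance over the 3 log2 ratios. Transcripts came from GENCODE and promoters from RefSeq. Python 3.11.15, pandas 2.3.3, numpy 2.4.6, Biopython 1.88 and matplotlib 3.10.9 were used.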

Additional observations from a re-analysis of the deposited data

How the results depend on the processing

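The 2-fold counts of the 8 genes are small and moved with the settings. For Ercc1 AL over wt AL, where none was higher and none lower, FPKM as deposited gave 1 higher, and a 1.5-fold threshold gave 1 higher and 2 lower. For Ercc1 DR over Ercc1 AL, 1 was lower, against 0 as deposited, 2 with a pseudocount of 0.1 and 2 at 1.5-fold. For Ercc1 DR over wt AL, none was higher, against 4 as deposited, 1 when scaled to the FPKM sum without the 100 most abundant genes and small RNA, 1 with a pseudocount of 0.1 and 1 at 1.5-fold. There 2 were lower, against 1 as deposited, 1 with a pseudocount of 5 and 1 among genes with at least 5 FPKM. In each of these settings the gene that left the lower count was Serpina12. Its log2 ratio was -0.90 as deposited and -0.44 with a pseudocount of 5, and its highest level, 1.709 FPKM, is under 5 FPKM. Why the other counts moved was not tested. Of the 24 log2 ratios, 4 had the other sign as deposited, namely Serpina3g in Ercc1 AL over wt AL, Serpina3c in Ercc1 DR over Ercc1 AL, and Serpina3f and Serpina3g in Ercc1 DR over wt AL. Scaling to the FPKM sum turned 1, Serpina3g in Ercc1 AL over wt AL. Values moved beyond the range their bounds allow in 23 of the 24 as deposited, 10 with the sum scaling, 6 with scaling over official symbols, 5 with a pseudocount of 5 and 3 with one of 0.1. The midpoint of the bounds, no filter, summed rows and scaling over genes at 5 FPKM left all 24 inside it. No paired analysis was possible because each group has 1 library, and for the same reason no library could be left out. The depth is unknown, and the bounds of Serpina12 are the widest, so its level is the least certain.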

Other observations

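The alpha-1-antitrypsin copies split by gene, in a pattern chosen after their values were seen. Serpina1b was at 546.4 FPKM in Ercc1 DR, 420.9 FPKM in Ercc1 AL and 362.7 FPKM in wt AL, and Serpina1d at 238.1 FPKM in Ercc1 DR, 184.0 FPKM in Ercc1 AL and 158.1 FPKM in wt AL. Both had Ercc1 DR highest as deposited, while their rescaled log2 ratio for Ercc1 DR over wt AL was -0.19 each. Serpina1a, at 192.5 FPKM in Ercc1 DR, 281.3 FPKM in Ercc1 AL and 281.1 FPKM in wt AL, had Ercc1 DR lowest. Serpina1c, at 215.5 FPKM in Ercc1 DR, 328.9 FPKM in Ercc1 AL and 326.3 FPKM in wt AL, and Serpina1e, at 71.27 FPKM in Ercc1 DR, 92.39 FPKM in Ercc1 AL and 109.0 FPKM in wt AL, also had Ercc1 DR lowest. For Serpina1a and Serpina1c the bounds of Ercc1 AL and wt AL overlapped, and for Serpina1e wt AL was higher than Ercc1 AL with no overlap. These copies are close to each other in sequence, and how shared reads were assigned among them is not given in the sources used here. Among the secreted serpins that act on clotting, Serpinc1, antithrombin, was at 178.7 FPKM in Ercc1 DR, 95.22 FPKM in Ercc1 AL and 90.65 FPKM in wt AL. Serpind1, heparin cofactor 2, was at 98.46 FPKM in Ercc1 DR, 58.26 FPKM in Ercc1 AL and 36.05 FPKM in wt AL. Both had Ercc1 DR highest, with rescaled log2 ratios for Ercc1 DR over wt AL of 0.19 for Serpinc1 and 0.65 for Serpind1.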
